A study of Rattus norvegicus with 6 samples.

Results

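The genes described here are the 39 members of the Bcl2 family, the caspases, their inhibitors and the death receptor pathway that had a probe set of their own on the array. They were chosen by symbol from the platform annotation, which gave 44 of 27342 probe sets 1 of these symbols and no other. For the 5 genes with 2 probe sets the brighter was used, so that each gene counts once. Casp14, Bbc3, Birc5, Birc6 and Birc7 are not analysed here, and Bcl2l2 was left out because its probe set also carries the symbol of Pabpn1.

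Whole ovaries from 0-day-old Sprague-Dawley rats were kept in organ culture for 24 h, either untreated (control) or with human connective tissue growth factor (CTGF) at 500 ng/ml. CTGF is a secreted matricellular protein of the CCN family. Each of the 6 samples, 3 control and 3 CTGF, was a pool of 2 to 3 ovaries from littermates that shared a culture well, and each of 3 organ culture dates, called batches here, gave 1 control and 1 CTGF sample. The study asked whether CTGF acts on the assembly of primordial follicles. In this process nests of oocytes break apart and many oocytes die. All 8 measured germ cell markers, among them Ddx4, Dazl and Zp3, and all 6 measured pregranulosa cell markers had signals above background.

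Apoptosis is started from inside or outside the cell. In the mitochondrial branch, BH3-only proteins sense damage or loss of survival factors and engage the anti-apoptotic proteins around Bcl2, which sets free the effectors Bax and Bak1 to open the outer mitochondrial membrane. Cytochrome c then binds Apaf1 to form the apoptosome, which activates caspase-9. In the death receptor branch, Fas ligand or tumor necrosis factor recruits Fadd or Tradd and activates caspase-8. Both branches end in executioner caspases, which inhibitors of apoptosis such as Xiap hold in check. Bcl2 family proteins and caspases are known regulators of oocyte number in the rodent ovary. Many of these proteins are controlled after transcription, by cleavage, phosphorylation or release, which an array does not measure.

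No transcript of this pathway differed between CTGF and control ovaries after adjustment for the number of probe sets tested. Of the 39 genes 18 had a higher and 21 a lower mean with CTGF, while 47.2% of all probe sets were higher. The median log2 difference, CTGF minus control, was -0.02 for the members and -0.003 for all probe sets. The single differences of the 39 genes ran from -0.20 for Casp6 to 0.20 for Bik. With limma and the culture batch as a block, 0 of the 39 passed after Benjamini-Hochberg adjustment over all probe sets (adjusted p from 0.994 to 0.996), as did 0 of all probe sets (0%). At an unadjusted p under 0.05 in limma, 1 member, Bik, was called, or 1 of 39 beside 3.35% of all probe sets. The criteria of the study are a ratio of un-logged means over 1.2 or under 0.83, a difference over 10 and a p under 0.05. At these criteria limma called 0 members, beside 0.435% of all probe sets. The methods' 2-way test also called 0, but for it the share over all probe sets was not computed. In a 95% confidence interval of limma, 38 of the 39 differences included 0. For 15 of the 39 the interval lay within a 1.2-fold change in either direction, a bound of 0.26 on the log2 scale, as it did for 61.7% of all probe sets. For the rest a change of that size stayed within the interval, so its absence was not shown.

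**Figure D1:**
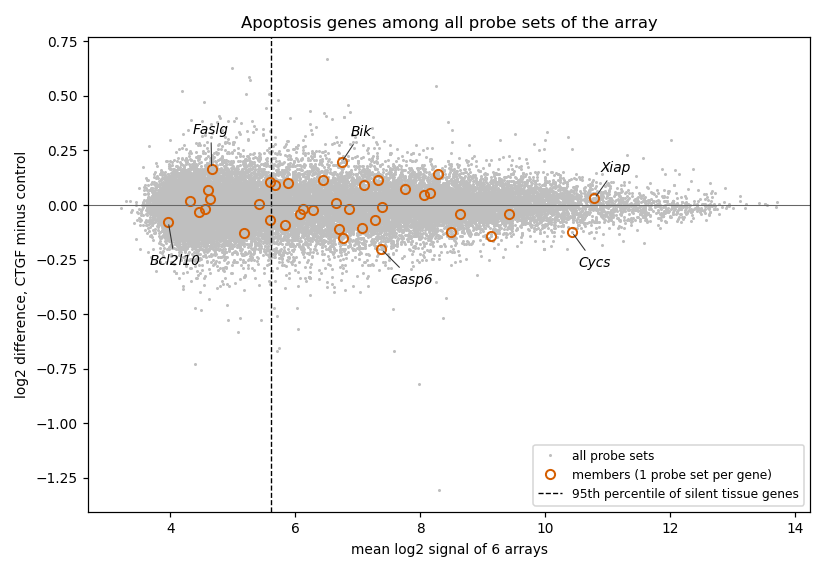
Each point is a probe set of the array (grey) or a member (orange circles, 39 genes), placed by its mean log2 signal over 6 arrays (horizontal) and its CTGF minus control log2 difference (vertical). The members lie between -0.20 and 0.20, inside the cloud of all probe sets, and 28 of them lie to the right of the background level (dashed line).

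Signals are un-logged array values and are given for batches 1, 2 and 3 in this order. Background was read from 47 genes that an ovary should not use, such as those of retina, lens, pancreas, lung and gut, called silent tissue genes here, whose 95th percentile was a signal of 48.8. Above it lay 28 of the 39 members and 52.8% of all probe sets. Levels of different probe sets are not comparable as amounts of transcript. The background level, sums of markers and orders by brightness are therefore rough guides only. Differences between CTGF and control are taken within a probe set. As deposited, each probe set has the same midpoint between its control and its CTGF array in the 3 batches, to within 0.005 on the log2 scale. The control and CTGF arrays of a gene therefore fail to overlap exactly when its difference has the same sign in the 3 batches. This was so for 7 of the 39 members, beside 20.3% of all probe sets. Of the 39, 6 were higher with CTGF in every batch, beside 9.41% of all probe sets, and 1 was lower, beside 10.9%. The 7 are Bik, Bmf, Bcl2l11, Bax, Bcl2l12, Bcl2l13 and Faslg. All but Faslg belong to the Bcl2 family. That family makes up much of the 39, with 5 anti-apoptotic, 3 effector, 7 BH3-only and 4 other Bcl2-like genes, and was not tested as a set. Where genes are ordered by p, the order is that of limma, and standard errors are its moderated ones.

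**Figure D2:**
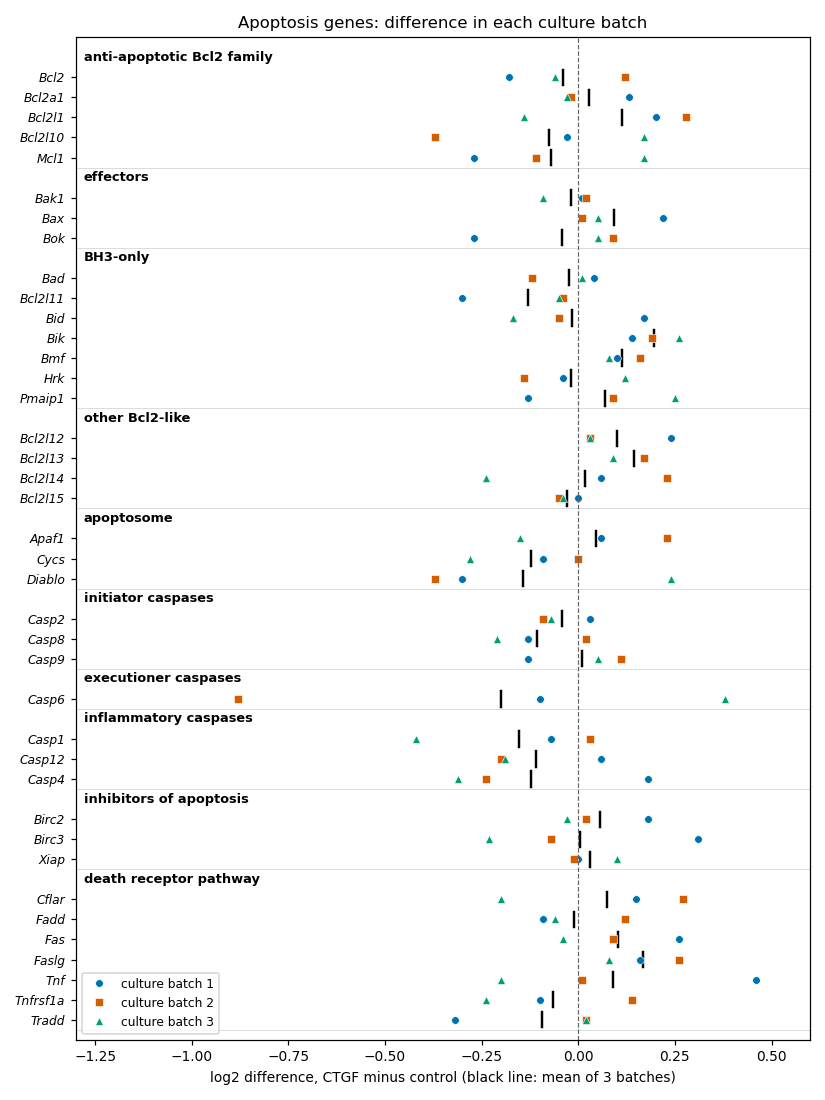
Log2 difference between CTGF and control (horizontal axis) for each of the 39 genes (vertical axis, grouped by role) in culture batch 1 (circles), 2 (squares) and 3 (triangles), with the mean of the 3 (black line). The points of 7 genes lie on the same side of 0, and those of Casp6 run from -0.88 to 0.38, while equal values cover each other.

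Bik, a BH3-only protein of the endoplasmic reticulum that promotes apoptosis, had the smallest p of the members. Its signal was 102, 100.4 and 97.7 in the control arrays and 112, 115 and 117 in the CTGF arrays. Every CTGF array was above every control array. The log2 difference was 0.20 (standard error 0.07, 95% interval 0.04 to 0.35), and batch by batch it was 0.14, 0.19 and 0.26. This is 1.15 times control, under the ratio of 1.2 that the study required, and its adjusted p in limma was 0.994. Without replicate 2 and without replicate 3 the p of Bik was no longer under 0.05 in limma, at log2 differences of 0.20 and 0.17.

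Faslg, the ligand of Fas, came next by p. Its signal was 23.9, 23.1 and 24.6 in control ovaries and 26.7, 27.7 and 26.0 with CTGF, with no overlap between the groups. The log2 difference was 0.17 (standard error 0.07), but the signals lay close to the median of the silent tissue genes, 22.1, and below their 95th percentile. Bcl2l13, a Bcl2-like protein of the outer mitochondrial membrane with a role in mitophagy, had signals of 294, 294 and 302 in control arrays and 331, 331 and 322 in CTGF arrays. It was higher in each batch, with a log2 difference of 0.14 (standard error 0.06) at a signal well above background. Bmf, a BH3-only protein that is set free from the actin cytoskeleton, had signals of 84.4, 82.7 and 85.0 without and 90.5, 92.4 and 89.9 with CTGF. Its log2 difference of 0.11 (standard error 0.06) also had the same sign in each batch. The methods' 2-way test, which uses the spread of each gene alone, gave an unadjusted p under 0.05 to Bik, Bcl2l13 and Bmf, or 3 of 39 beside 4.2% of all probe sets, and an adjusted p under 0.05 to none.

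For Faslg, Bcl2l13 and Bmf, which follow Bik in the order of p, the 250 bases before the RefSeq transcription start are printed 5′ to 3′ on the strand of the gene in the GRCr8 assembly, because a promoter is what a difference in transcript would first be read against. Capitals mark matches, on either strand, to the TATA box TATAAA, the CCAAT box CCAAT, the GC box GGGCGG and the AP-1 site TGANTCA.
Faslg, chr13:76695504-76695753, minus strand: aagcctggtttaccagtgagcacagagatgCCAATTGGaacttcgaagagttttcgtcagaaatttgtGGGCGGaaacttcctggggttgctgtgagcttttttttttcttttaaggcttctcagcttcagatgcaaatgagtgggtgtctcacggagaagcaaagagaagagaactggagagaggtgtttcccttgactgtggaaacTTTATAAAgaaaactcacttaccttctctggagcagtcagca
Bcl2l13, chr4:155728047-155728296, plus strand: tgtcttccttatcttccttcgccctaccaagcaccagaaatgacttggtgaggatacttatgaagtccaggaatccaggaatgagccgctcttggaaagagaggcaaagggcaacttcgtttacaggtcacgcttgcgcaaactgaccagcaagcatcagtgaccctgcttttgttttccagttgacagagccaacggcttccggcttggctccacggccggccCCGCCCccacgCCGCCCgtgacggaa
Bmf, chr3:125974065-125974314, minus strand: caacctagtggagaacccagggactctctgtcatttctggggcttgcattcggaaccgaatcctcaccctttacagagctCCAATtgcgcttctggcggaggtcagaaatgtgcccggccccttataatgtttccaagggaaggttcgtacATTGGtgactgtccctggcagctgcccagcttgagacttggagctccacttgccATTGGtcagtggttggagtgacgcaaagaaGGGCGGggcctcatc
The window of Faslg held a TATA box and a CCAAT box, each read on both strands from overlapping letters, and 1 GC box, that of Bcl2l13 2 GC boxes, and that of Bmf 3 CCAAT boxes and 1 GC box. None of the 3 held the AP-1 letters. Among 33 members with a window in the table, 4 had a TATA box (12.9% of all 33469 windows), 11 a CCAAT box (34% of all), 19 a GC box (30.5% of all) and 4 an AP-1 site (6.34% of all). The windows of all genes include those of noncoding genes. These matches are descriptions of letters and were not tested against the differences.

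**Figure D3:**
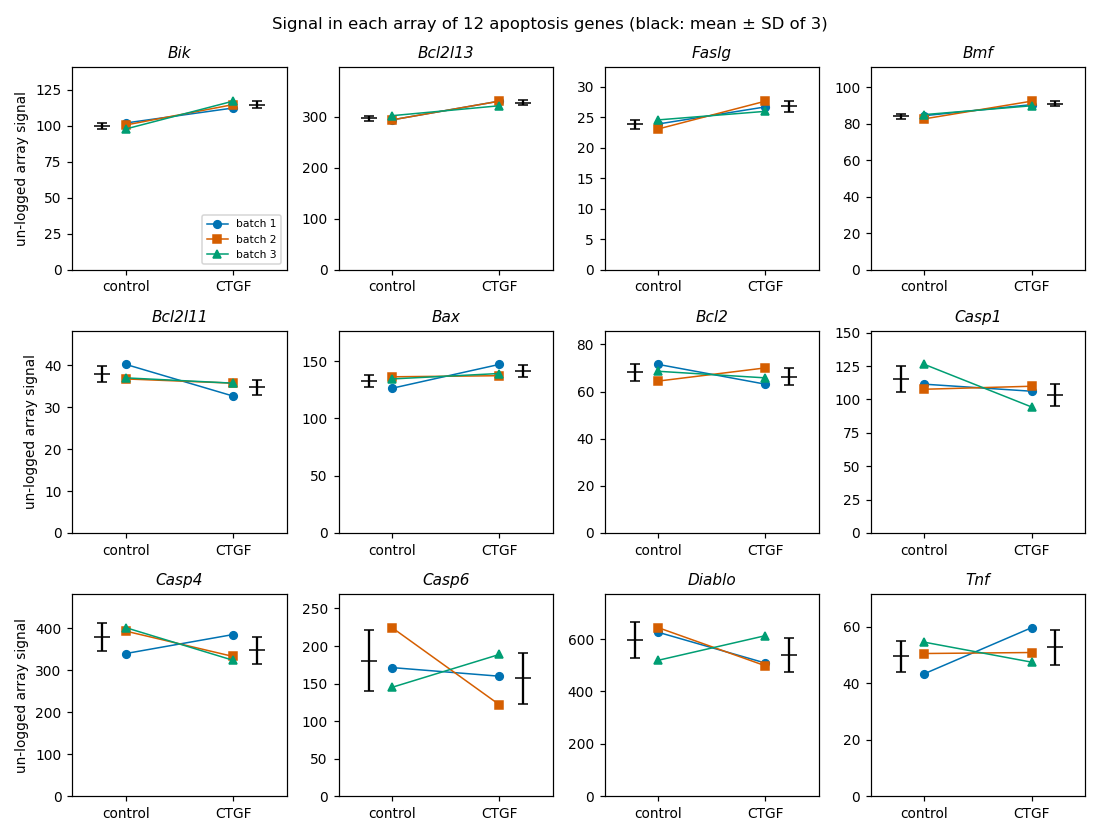
Un-logged array signal (vertical axes, from 0) of 12 members in control and CTGF ovaries, with lines joining the arrays of a culture batch and the mean ± SD of 3 arrays in black beside them. Batch differences were removed before deposit, so the SD does not show the full spread between separate cultures. Lines of Bik, Bcl2l13, Faslg, Bmf and Bax slope upward in all batches and those of Bcl2l11 downward, while those of Casp4, Casp6, Diablo and Tnf cross.

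Of the 7 measured BH3-only genes, which all promote apoptosis, 3 had higher and 4 lower means with CTGF, with a median log2 difference of -0.02. Besides Bik and Bmf, Pmaip1 had a higher mean, and Bcl2l11, Bid, Bad and Hrk had lower means. Bcl2l11 (Bim), which binds all anti-apoptotic members, had signals of 40.2, 36.8 and 37.0 in control arrays and 32.7, 35.8 and 35.8 with CTGF. It was the only member lower in every batch, with differences of -0.30, -0.04 and -0.05 and a mean of -0.13 (standard error 0.08), at signals below the background level. Bid, which links caspase-8 to the mitochondria, had differences of 0.17, -0.05 and -0.17, and Bad, which is held by 14-3-3 proteins when survival factors are present, of 0.04, -0.12 and 0.01. Both have a mean close to 0 because the batches differed in sign. Pmaip1 (Noxa), which binds Mcl1, and Hrk, known from neurons deprived of growth factor, lay below the background level. Pmaip1 had a difference of 0.07 (standard error 0.09). The signal of Hrk was 23.9, 24.8 and 22.6 in control arrays and 23.3, 22.5 and 24.6 in CTGF arrays, a difference of -0.02 (standard error 0.08).

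Among the effectors that permeabilize mitochondria, Bax had signals of 126, 136 and 134 in control arrays and 147, 137 and 139 in CTGF arrays. Its CTGF arrays were all above its control arrays, but the difference was 0.22, 0.01 and 0.05 in the 3 batches, so that most of it came from batch 1. The mean was 0.09 (standard error 0.07). Bak1, which can replace Bax, had 115, 115 and 119 without and 116, 117 and 112 with CTGF, a difference of -0.02 (standard error 0.07). Its 95% interval was -0.18 to 0.14. Bok, a relative that is abundant in reproductive tissue, had signals of 439.6, 388 and 393 in control ovaries and 365, 413 and 407 with CTGF. It was lower in batch 1 and slightly higher in the others, with a mean of -0.04 (standard error 0.09).

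The anti-apoptotic members showed no direction shared by all batches. Bcl2 itself had signals of 71.5, 64.4 and 68.6 in control arrays and 63.1, 70.0 and 65.8 in CTGF arrays, a difference of -0.04 (standard error 0.08) with a 95% interval of -0.23 to 0.15. Mcl1, a short-lived survival protein that oocytes depend on, had 53.1, 50.2 and 45.6 without and 44.0, 46.5 and 51.3 with CTGF. The difference of Mcl1 was -0.07 (standard error 0.10), at signals at the background level. Bcl2l1, which encodes Bcl-xL, a survival factor of germ cells, had signals of 149, 145 and 168 in control arrays and 171, 176 and 152 in CTGF arrays. It was higher in batches 1 and 2 and lower in batch 3, with a mean of 0.11 (standard error 0.10). Bcl2l10, known from oocytes, had signals under the silent tissue median of 22.1, with 15.8, 17.8 and 14.7 without and 15.5, 13.7 and 16.6 with CTGF, and a difference of -0.08 (standard error 0.11). Bcl2a1, a target of NF-kappa B in blood cells, was likewise dim, with a difference of 0.03 (standard error 0.07).

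The change of Bax relative to that of Bcl2 is often taken as a measure of the balance of the family. The log2 difference of Bax minus that of Bcl2 was 0.40, -0.11 and 0.11 in the 3 batches, a mean of 0.13 ± 0.26 (SD over 3 batches). An exact sign-flip permutation test over the batches, two-sided, gave p = 0.75, but the smallest p that 3 batches allow is 0.25, so the test could not have called a difference of any size. The sign differed between batches. Without replicate 1 the mean was 0, with the mean over the probe sets of Bax it was 0.06, and with the dimmer probe set of Bax it was -0.017.

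Of the 4 Bcl2-like genes with less settled roles, Bcl2l12 was higher in every batch besides Bcl2l13. Its signals were 54.2, 58.1 and 58.1 in control arrays and 64.0, 59.3 and 59.3 in CTGF arrays, a difference of 0.10 (standard error 0.07), most of it from batch 1. Bcl2l14 and Bcl2l15 had signals near those of the silent tissue genes. For Bcl2l14 they were 19.4, 18.4 and 21.6 without and 20.3, 21.6 and 18.3 with CTGF, a difference of 0.02 (standard error 0.10), and for Bcl2l15 the difference was -0.03 (standard error 0.06).

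Downstream of the mitochondria, the 3 measured genes were well above background, and none differed in the same direction in every batch. Cycs, which encodes cytochrome c, a carrier of the respiratory chain that triggers the apoptosome once released, had signals of 1418, 1379.6 and 1520.2 in control arrays and 1333, 1379.6 and 1252 in CTGF arrays. The mean difference of Cycs was -0.12 (standard error 0.08), and batch by batch it was -0.09, 0.00 and -0.28. Diablo (Smac), which binds and neutralizes inhibitors of apoptosis, had 626, 644 and 519 without and 508, 498 and 613 with CTGF. Diablo was lower with CTGF in batches 1 and 2 and higher in batch 3, by -0.30, -0.37 and 0.24, so that its mean of -0.14 (standard error 0.13) describes no single batch. Apaf1, the scaffold of the apoptosome, had signals of 261, 247 and 282 in control arrays and 272, 290.0 and 254 in CTGF arrays, a difference of 0.05 (standard error 0.09).

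The initiator caspases had small differences. Casp2, which has a known role in the death of oocytes, had signals of 680.3, 709 and 704 in control arrays and 695, 666 and 671 in CTGF arrays. The difference of -0.04 (standard error 0.07) had a 95% interval of -0.20 to 0.12, so that at this signal a change beyond 1.2-fold lay outside the interval. Casp9, the caspase of the apoptosome, had 105, 96.3 and 98.4 without and 95.7, 104 and 102 with CTGF and a difference of 0.01 (standard error 0.07). Casp8, the caspase of the death receptors, had 140.1, 133 and 144 in control ovaries and 128, 135 and 124 with CTGF. It was lower in batches 1 and 3, with a mean of -0.11 (standard error 0.07). Casp6, an executioner caspase that cleaves nuclear lamins, had both the lowest mean difference and by far the widest spread of the 39. Its signals were 171, 224 and 145 in control arrays and 159.8, 122 and 189 in CTGF arrays. The differences of -0.10, -0.88 and 0.38 in the 3 batches gave a mean of -0.20 (standard error 0.22) with a 95% interval of -0.73 to 0.33. Without replicate 2 the difference of Casp6 was 0.14, so its direction rested on that batch.

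The 3 inflammatory caspases, which process interleukin-1 beta or act in pyroptosis and stress of the endoplasmic reticulum, all had lower means with CTGF, with a median of -0.12. Casp1 had signals of 111, 108 and 126 in control arrays and 106, 109.9 and 94.4 in CTGF arrays, a difference of -0.15 (standard error 0.10). Casp4 had 340.1, 393 and 402 without and 385, 333 and 324 with CTGF, a difference of -0.12 (standard error 0.11). Casp12 had 101, 111 and 111 in control arrays and 105, 96.3 and 97.0 in CTGF arrays, a difference of -0.11 (standard error 0.08). None of the 3 was lower in every batch, and the batch that went against the mean was batch 1 for Casp4 and Casp12 and batch 2 for Casp1. Batch 3 had the lowest differences of Casp1 and Casp4, -0.42 and -0.31. In RefSeq, Casp1, Casp4 and Casp12 lie side by side on the same chromosome with no other protein-coding gene between them, and their probe sets are separate. Leukocytes are a known source of these caspases. Of 11 measured leukocyte markers 7 were lower and 4 higher with CTGF, with a median of -0.12, and 7 of the 11 lay above background. Their summed signal was 824 to 856 in control arrays and 761 to 792 in CTGF arrays, groups that did not overlap. Cybb, the brightest of these markers, had 280.1 to 298 in control arrays and 239 to 254 in CTGF arrays, and the sum of the others was 544 to 566 and 517 to 537. Csf1r, Laptm5, Cd68 and Spi1 had higher means with CTGF. Of all single probe sets 20.3% had groups that did not overlap, and for sums of markers no such share was computed. These ranges leave out the differences between culture dates that were removed before deposit. Cybb was lower with CTGF in batch 1 too, at 254 against 280.1, where Casp4 and Casp12 were higher. Stromal and endothelial markers also had lower means, with medians of -0.11 and -0.13. In whole organs fewer cells of a type and less RNA per cell cannot be told apart. The part of leukocytes or other cells in the values of these caspases was not tested.

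Genes that restrain caspases had small differences. Xiap, which binds and blocks caspases, had signals of 1771, 1783 and 1710.3 in control arrays and 1771, 1771 and 1833 in CTGF arrays. Its difference was 0.03 (standard error 0.07) with an interval of -0.13 to 0.19. Birc2 and Birc3, ubiquitin ligases of the tumor necrosis factor receptor complex, are neighbours in the genome. Birc3 had signals of 38.6, 44.0 and 46.5 without and 47.8, 41.9 and 39.7 with CTGF, below the background level, and a difference of 0.003 (standard error 0.11). Birc2 lay above background and had a difference of 0.06 (standard error 0.07). Both had their highest difference in batch 1, at 0.18 for Birc2 and 0.31 for Birc3, and negative differences in batch 3. Cflar, which blocks caspase-8 at the death receptors, had 207, 198 and 232 in control arrays and 229, 239 and 202 in CTGF arrays. It was higher in batches 1 and 2 and lower in batch 3, with a mean of 0.07 (standard error 0.10). Cflar and Casp8 are neighbours in RefSeq. Their means had opposite signs, and in batch 3 both were lower, at -0.20 and -0.21.

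In the death receptor pathway 4 of the 7 measured genes had higher and 3 lower means, and 5 of the 7 lay above background. Fas, the receptor of Fas ligand, had signals of 44.3, 47.2 and 49.2 in control arrays and 53.1, 50.2 and 47.8 in CTGF arrays, at the background level. Its difference was 0.10 (standard error 0.08), higher in batches 1 and 2 and slightly lower in batch 3. Tnf, a cytokine mostly of macrophages and other leukocytes, had 43.4, 50.6 and 54.6 in control arrays and 59.7, 50.9 and 47.5 in CTGF arrays. The difference in Tnf was 0.46 in batch 1, 0.01 in batch 2 and -0.20 in batch 3, so its mean of 0.09 (standard error 0.13) has no common direction, and without replicate 1 it was -0.10. Its receptor Tnfrsf1a had a difference of -0.07 (standard error 0.09). Of the adaptors, Fadd had a difference of -0.01 (standard error 0.07) and Tradd of -0.09 (standard error 0.09). The value of Tradd came from batch 1, at -0.32, while the other batches had 0.02.

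For many of these genes the within-batch differences varied in sign. The range of the 3 within-batch differences had a median of 0.28 for the members and 0.23 for all probe sets. In batch 1 the median difference of the members was 0.03, in batch 2 it was 0.02 and in batch 3 it was -0.04, while it was between -0.01 and 0.00 for all probe sets. Casp6, Tnf and Diablo had the widest ranges. Differences between culture dates common to both arrays of a batch had been removed before deposit, so these ranges reflect how the 2 samples of a batch differed from each other.

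A second probe set allows 5 of the genes to be measured again. For Diablo the 2 probe sets carry the same accessions and gave the same pattern, with -0.27, -0.37 and 0.24 in the 3 batches for the dimmer and -0.30, -0.37 and 0.24 for the brighter. Those of Cycs also carry the same accessions and were similar, with means of -0.08 and -0.12. Such pairs may measure near-identical copies of a gene and are no independent replicates. For Bax and Bcl2l1 the pairs carry different accessions and the means had opposite signs. The dimmer probe set of Bax had signals of 64.9, 65.8 and 61.4 in control arrays and 61.0, 59.7 and 64.0 in CTGF arrays, a difference of -0.06 (standard error 0.07). The dimmer one of Bcl2l1, which carries the RefSeq transcripts, had 101, 103 and 111 without and 103, 102 and 94.4 with CTGF, a difference of -0.07 (standard error 0.08). The direction of these genes therefore depends on the probe set read. The dimmer probe set of Xiap, which carries its RefSeq transcript, was higher in every batch, by 0.08, 0.14 and 0.01, with a mean of 0.08 (standard error 0.07).

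**Figure D4:**
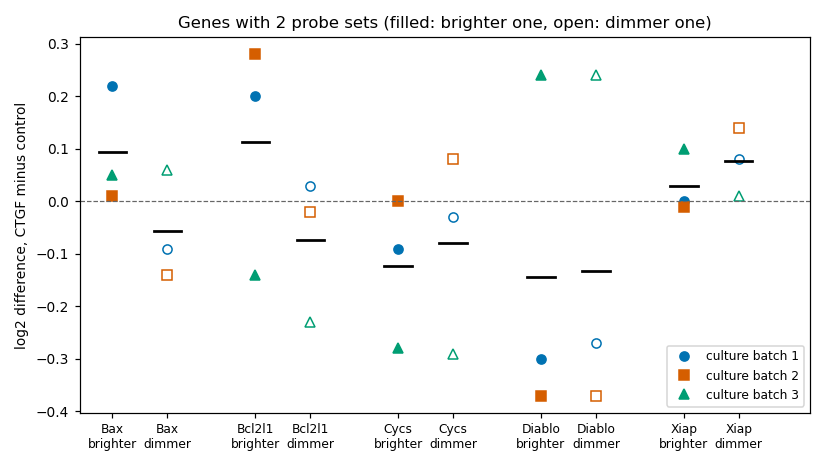
Log2 difference between CTGF and control (vertical axis) in culture batch 1 (circles), 2 (squares) and 3 (triangles) for the brighter (filled) and dimmer (open) probe set of 5 genes (horizontal axis), with the mean as a black line. The pairs of Diablo and Cycs run alike, and the means of Bax and Bcl2l1 lie on opposite sides of 0.

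Other genes of cell death that are not members were read from the same fit. Of 50 listed genes 44 had a probe set, of which 25 had a higher and 18 a lower mean with CTGF and 1 a difference of 0, and the median difference was 0.01. At an unadjusted p under 0.05 in limma 1 was higher and 1 lower (1.45% and 1.89% of all probe sets), and 0 passed after adjustment (adjusted p from 0.994 to 1 in limma). Traf3, an adaptor of the tumor necrosis factor receptor family, had signals of 104, 103 and 115 in control arrays and 137, 139 and 124 in CTGF arrays, a difference of 0.32 (standard error 0.08). Tnfsf10 (TRAIL), a death ligand, had 99.0, 103 and 102 without and 87.4, 83.9 and 85.0 with CTGF, a difference of -0.25 (standard error 0.07). Traf3, at 1.25 times control, met the thresholds of the study when the p was that of limma, 0.0085. With the p of limma 0.435% of all probe sets did so. The study took its p from the 2-way test, which uses the spread of each gene alone and is not given here for Traf3. The differences of Traf3 were 0.40, 0.44 and 0.12 in the 3 batches, with an SD of 0.17. The list of regulated genes in the study, which used its 2-way test, does not hold Traf3. The groups did not overlap for Traf3 or Tnfsf10, and Tnfsf10 went the other way from the death ligand Faslg. Its receptor Tnfrsf10b had a difference of -0.11 (standard error 0.08). Next by p were Gzmb, a protease of cytotoxic lymphocytes, at -0.15 (standard error 0.09), and Tp63, a guardian of the oocyte genome, at 0.13 (standard error 0.09). The value of Tp63 came mostly from batch 3, at 0.35.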

How the data were processed

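The authors hybridized 6 samples to Affymetrix Rat Gene 1.0 ST arrays and summarized each probe set to a log2 signal with RMA, adjusted for GC content, in Partek, as their methods and the submitters' notes state. The deposited log2 values were used as they are, for 27342 probe sets, and 0 value columns were without a sample. They carry a removal of batch differences that the methods do not describe. Pairing comes from the labels, where the replicate number is the organ culture date batch, and the block follows the methods. The usual check, a correlation of paired deviations, is fixed by that removal and tells nothing. The test was that of limma 3.58.1 (R 4.3.3), with lmFit and eBayes, batch as a block, 2 residual and 4.22 prior degrees of freedom. It was fitted, and adjusted by Benjamini-Hochberg, over all probe sets, and the code was tested on simulated data. Array medians lay between 5.82 and 5.84, and the number of arrays limits the precision. Samples of a group came from separate culture dates.

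Symbols came from the platform annotation, and 39 of 39 members matched RefSeq by Entrez number. Members and lists were chosen with earlier results of these data known. The genes named in full were the 6 with the smallest p, the brightest and dimmest of each role, those without overlap, the 4 with the widest range among those of mixed sign, and Bcl2, Bax, Mcl1, Casp8, Casp9, Apaf1, Fas, Faslg, Tnf, Xiap, Bik and Bmf. Casp1 was added after its values were seen. Of the other pathway genes the 4 with the smallest p were named, and Tnfrsf10b was added. Alternatives were a fit with no block, quantile normalization, centred medians, a filter on dim probe sets, eBayes with a trend or made robust, a 2-way test as in the methods, the mean over a gene's probe sets, each replicate left out and other thresholds.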

Additional observations from a re-analysis of the deposited data

How the results depend on the processing

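Under every alternative run, 0 of the 39 members had an adjusted p under 0.05, and 0 of all probe sets. The fit with no replicate block, which does not allow for the batch differences already removed, had the smallest adjusted p of a member, 0.0887 for Bik, and called 4 members at an unadjusted p under 0.05, Bik, Bcl2l13, Bmf and Faslg, beside 16.1% of all probe sets. That count was 3 with array medians centred (3.45% of all probe sets) and 3 with the methods' 2-way test (4.2%), against 1 (3.35%). It was 2 without replicate 1 (2.36%), 0 without replicate 2 (2.53%) and 3 without replicate 3 (4.55%). At the criteria of the study 0 to 1 members were called when a replicate was left out (Casp4 without replicate 1, Diablo without replicate 3), and 1, Bik, with a ratio over 1.1 or under 0.91. Members with the same sign in all batches kept were 14 to 20 when a replicate was left out, which asks for 2 signs and not 3. For these calls at the study's criteria and these sign counts the share over all probe sets was not computed. They therefore cannot be set beside it. The Bax minus Bcl2 value, 0.13, ran from 0 to 0.26 when a replicate was left out and was 0.06 with the mean over a gene's probe sets. With the dimmer Bax probe set, an alternative chosen after seeing the data, it was -0.017. The count of members above background was 28, and 36 above the median of the silent tissue genes. With dim probe sets left out, 28 members were tested. The cause of these shifts was not tested.

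Of 418 gene values under the alternatives, 27 changed sign, in 22 members. Of these 25 arose when a replicate was left out. Leaving out 1 replicate gave log2 differences of Apaf1 from -0.045 to 0.145, Bad from -0.055 to 0.025, Bak1 from -0.04 to 0.015, Bcl2 from -0.12 to 0.03, Bcl2a1 from -0.025 to 0.055 and Bcl2l10 from -0.20 to 0.07. It also gave those of Bcl2l14 from -0.09 to 0.145, Bid from -0.11 to 0.06, Birc2 from -0.005 to 0.10, Birc3 from -0.15 to 0.12, Bok from -0.11 to 0.07 and Casp6 from -0.49 to 0.14. The same held for Casp9 from -0.04 to 0.08, Cflar from -0.025 to 0.21, Fadd from -0.075 to 0.03, Hrk from -0.09 to 0.04, Mcl1 from -0.19 to 0.03 and Pmaip1 from -0.02 to 0.17. Further ranges were Tnf from -0.095 to 0.235, Tnfrsf1a from -0.17 to 0.02, Tradd from -0.15 to 0.02 and Xiap from -0.005 to 0.05. The sign of Fadd also turned with quantile normalization, to 0.0044, and with centred medians, to 0.0033.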

Other observations

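Markers of cell types were read from the same arrays. All 8 measured germ cell markers had means above control, from 0.003 for Ddx4 to 0.16 for Sycp3, a component of meiotic chromosomes, with a median of 0.03. All 5 stromal markers had means below control, with -0.35 for the receptor Pdgfra, -0.28 for the matrix proteoglycan Lum and -0.02 for Col1a1. All 3 measured endothelial markers did so too, with -0.17 for Emcn. None of these germ cell, stromal and endothelial markers had the same sign in every batch. The stromal markers were all higher with CTGF in batch 1 and all lower in batch 3. In batch 3 Pdgfra had 437 in the control and 214 in the CTGF array. Ddx4, Dazl, Sycp3, Mael and Taf7l were lower with CTGF in batch 2, Dppa3 in batch 3, and Gdf9 and Zp3 in batch 1. The summed signals of germ cell markers were 6395 to 7328 in control arrays and 6574 to 7525 in CTGF arrays, and those of stromal markers 4336 to 5467 and 3790 to 4758, so the groups overlapped for both. For the endothelial markers they were 342 to 383 and 314 to 347, which also overlapped. Pregranulosa markers were divided, 3 higher and 3 lower. Of 6 measured proliferation genes 1 was higher, 4 were lower and the median was -0.02. Shares of cells were not measured, and none of these lists was tested.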
